A study of Arabidopsis thaliana with 4 samples.

Results

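The genes described here encode the ribosomal proteins RPS15 to RPS30 of the cytosolic small (40S) subunit in Arabidopsis, compared between ang3, a leaf mutant, and the Ler (Landsberg erecta) control. They were chosen by locus, 47 genes in 16 protein families, with the ubiquitin-fused RPS27a genes left out, among the 25665 loci named on the array. All 47 have a probe, 48 probes in all, and 44 genes were bright enough to be tested. Each of 4 two-colour arrays compared RNA of ang3 with RNA of Ler, with ang3 in Cy5 on replicates 1 and 3 and in Cy3 on replicates 2 and 4. The labels name the tissue as shoot apex. The series text describes all green tissue of seedlings raised in vitro at 21 °C in 16 h light, after 3 days in the cold. Cotyledons, the first leaves and the apical meristem were thus pooled. The labels give growth stage 1.02 and the series text 1.03. The submitters name 2 dye swaps and biological replicates, and state 4 harvested replicates per genotype. Which arrays make up a swap is not given, so each array counts as 1 replicate here, and p-values may cover technical spread in part.

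As background, the small subunit carries the decoding centre, where the messenger RNA is read against transfer RNA, and it is built from 18S ribosomal RNA and one copy of each small-subunit protein. In Arabidopsis each of these proteins is encoded by a small family of near-identical genes, and transcripts of ribosomal proteins are known to be abundant in dividing shoot tissue. The mutation in ang3 is known to lie in RPL5B, a gene of a large-subunit protein, and plants that lack a ribosomal protein gene, RPS18 included, often have narrow, pointed first leaves. Families follow the usual names of the cytosolic ribosomal proteins, and 7 of the 47 loci have a symbol of their own in the reference gene table. Other loci are called by their identifiers.

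Each ratio is a log2 value of ang3 over Ler, averaged over 4 arrays unless an array is named. SE is that of the limma fit, in which a dye term takes up the difference between the dye orientations, and SD is the spread of the 4 ratios. A gene passed at a limma p-value adjusted by Benjamini-Hochberg over 20145 features under 0.05. The number of arrays limits the precision. Between 19224 and 21332 of 37478 probes were well above background per channel, and no spot was saturated. The arrays lie on 1 slide imaged in 1 scan, so no batch could be tested. RPL5B itself had a ratio of -0.039 (SE 0.069, SD 0.22, n = 4; adjusted p = 0.70), and its probe gave no check of the labels. In whole shoots, more cells of a type and more RNA per cell cannot be told apart. Of 7 shoot meristem markers 5 were tested and STM (0.36), KNAT1 (0.32), KNAT6 (0.19) and RPL (PENNYWISE, 0.14) rose. The fifth, CLV1, was below 0 on all 4 arrays, with a mean of -0.18 that did not pass (adjusted p = 0.058), while WUS and CLV3 were not well above background on any array. The summed signal of those 7 was 9533 to 9701 in ang3 and 9372 to 10040 in Ler over the arrays. CLV1 was the brightest of the 7 (log2 level 12.3 in ang3 and 12.5 in Ler) and weighs most in that sum. Of 7 leaf photosynthesis genes, CAB2, RBCS1A, RBCS3B, LHCA1 and LHCB5 fell, RBCS2B rose and 1 did not pass, with sums of 457420 to 547065 in ang3 and 527840 to 602879 in Ler. Among 13 genes of mitosis 3 rose (CDC20.2, CYCB1;1, CYCB1;3), 2 fell (PLE, HIK) and 8 did not pass, with sums of 28923 to 31203 in ang3 and 29233 to 30789 in Ler. Of 7 root markers 3 were bright enough to be tested and 0 passed with limma (1 at an unadjusted p under 0.05), with sums of 956 to 1017 in ang3 and 961 to 974 in Ler. Mean log2 levels of the 7 root markers were 6.83 to 7.44, and those not tested were well above background on no array. Their sums thus lie close to background. The part of tissue makeup in the ratios below was not tested.

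Most of the measured RPS15 to RPS30 genes had more transcript in ang3, by a small amount. Of 44 tested genes 29 rose, or 65.9%, against 15% of all features called higher. None was called lower with limma, against 11.2% of all features. At an unadjusted p under 0.05, 36 were higher, against 23.3% of all features, and 0 lower, against 18.4%. Both dim genes that entered through 1 genotype, At3g09680 and At4g39200, drop out when both genotypes must be well above background on 4 arrays, and 30 of the 42 genes left were then called higher, against 16.1% of all features. Those that rose and are named below did so by 0.17 to 0.39, or 1.13- to 1.31-fold. The median ratio of the 44 genes was 0.25, against 0.011 over all features tested, and 43 of 44 had a mean above 0. On all 4 arrays 31 of 44, or 70.5%, had a ratio above 0, against 25.1% of all features, and 1 lay below 0 on all 4, against 19%. When arrays were scaled by their median instead of loess, 10 of 44 were above 0 on all 4 arrays, against 10.7% of all features. Since the genes had been picked with results of these data known, these counts are a description. The medians over the 44 genes were 0.21, 0.34, 0.31 and 0.18 on replicates 1 to 4, and 6, 2, 1 and 9 genes lay below 0. Without replicate 3, 0 genes passed with limma, against 1.86% of all features called higher. In that fit 31 genes were higher at an unadjusted p under 0.05, against 15.3% of all features, and 43 of 44 ratios were above 0. Without replicate 1, 19 genes were called higher, against 8.37% of all features. Without replicate 2 it was 8, against 5.76%, and without replicate 4 it was 18, against 7.97%. Over the alternatives tried, each of the 29 calls was lost in 1 to 9, and 7 genes lost theirs in 6 or more of 12. Of these 12, the processed signals and the series table hold the same ratios, so a loss in both comes from 1 treatment of the data. At3g09680 was tested in 11 of them. Losses among all features called higher were not counted.

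**Figure D1:**
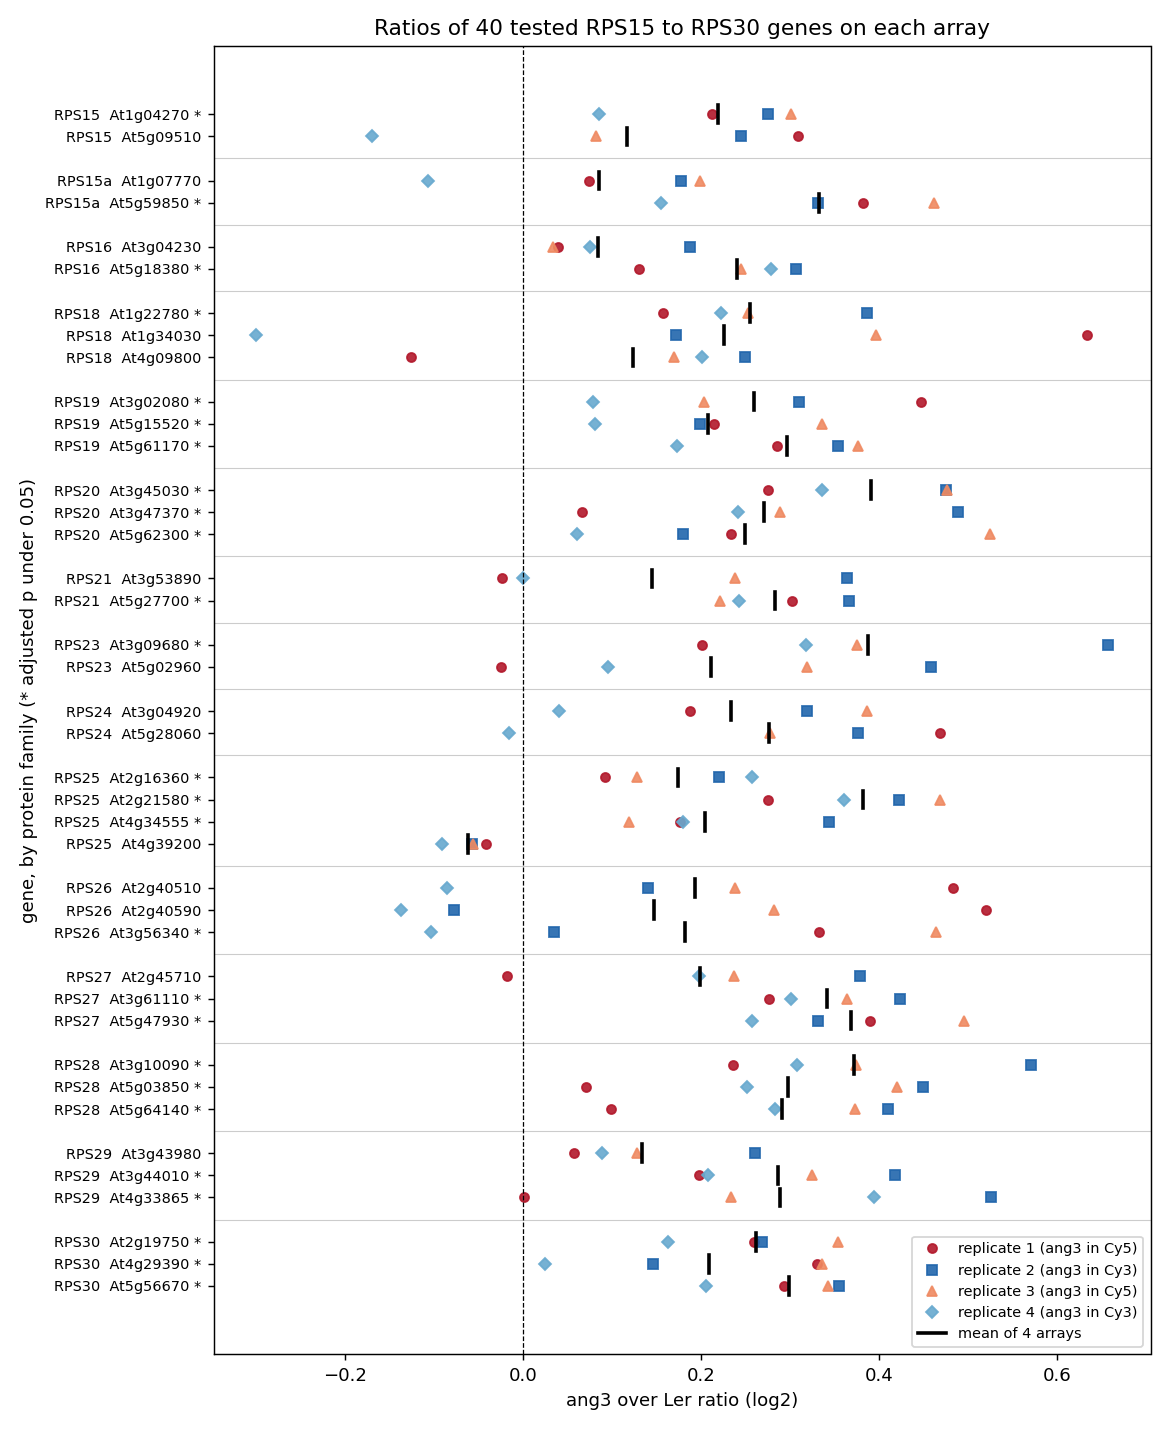
Log2 ratio of ang3 over Ler (x axis) of each of 40 tested genes (y axis, grouped by family) on each array, with points for the 4 replicates, black bars for their mean and asterisks for genes with an adjusted p under 0.05. The means of 39 of 40 genes lie to the right of 0, and At4g39200 lies to the left on all 4 arrays.

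**Figure D2:**
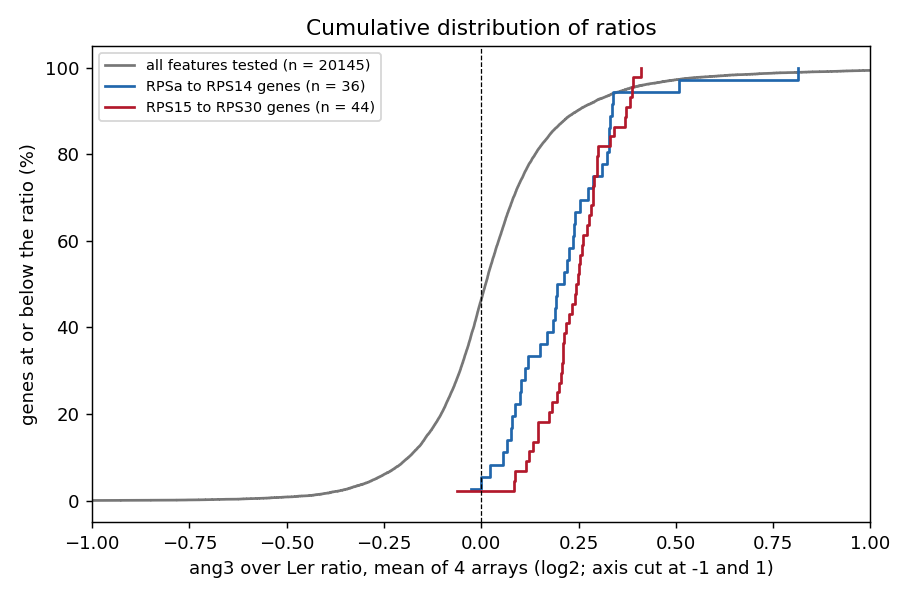
Cumulative share of genes (y axis, percent) at or below a mean log2 ratio of ang3 over Ler (x axis), for 20145 features, 36 genes of RPSa to RPS14 and 44 genes of RPS15 to RPS30. The curves of both ribosomal groups lie to the right of that of all features, with medians of 0.20 and 0.25 against 0.011.

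The head of the small subunit, which carries the sites that hold transfer RNA, includes RPS15, RPS16, RPS18, RPS19, RPS20 and RPS29. RPS15 lies close to the decoding centre, and in yeast and human cells it is needed for export of the precursor subunit. The gene called RPS15 (At1g04270) had ratios of 0.21, 0.28, 0.30 and 0.085 on replicates 1 to 4, above 0 on each array. Its transcript rose by 0.22 (SE 0.047, SD 0.096, n = 4; adjusted p = 0.030). The second RPS15 gene, At5g09510, stood at 0.31, 0.24, 0.082 and -0.17, below 0 on replicate 4 only. Its ratio of 0.12 (SE 0.082, SD 0.21, n = 4; adjusted p = 0.33) did not pass.

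RPS16 has a tail that reaches the transfer RNA in the peptidyl site. At5g18380 was at 0.13, 0.31, 0.24 and 0.28 on replicates 1 to 4. This bright gene rose by 0.24 (SE 0.038, SD 0.078, n = 4; adjusted p = 0.015). At3g04230, much the lower of the pair in ratio, had 0.039, 0.19, 0.034 and 0.075, all above 0. The mean was 0.084 (SE 0.037, SD 0.071, n = 4; adjusted p = 0.16), which did not pass. At3g04230 was also much the dimmer, with log2 levels of 8.18 in ang3 and 8.10 in Ler. In the processed signals its mean was 0.058, with replicate 3 at -0.057. The other gene, At2g09990, was not well above background in either genotype on any array and was not tested.

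RPS18 bridges the subunits from the head. PFL (At1g22780), whose loss gives Arabidopsis plants pointed first leaves, had ratios of 0.16, 0.39, 0.25 and 0.22. This amounted to a rise of 0.25 (SE 0.045, SD 0.097, n = 4; adjusted p = 0.019), or 1.19-fold. RPS18C (At4g09800) had -0.13, 0.25, 0.17 and 0.20, with replicate 1 below 0 and the others close together. Its mean of 0.12 (SE 0.058, SD 0.17, n = 4; adjusted p = 0.17) did not pass. The third gene, At1g34030, ranged most of all 44 genes over the arrays, with 0.63, 0.17, 0.40 and -0.30. Both arrays with ang3 in Cy5 were above both with ang3 in Cy3. Its ratio was 0.23 (SE 0.090, SD 0.40, n = 4; adjusted p = 0.12).

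RPS19, the protein most often mutated in human Diamond-Blackfan anaemia, is needed in human cells to mature the small subunit. All 3 RPS19 genes rose and each was above 0 on 4 of 4 arrays, but At3g02080 lost its call in 7 and At5g15520 in 6 of 12 alternatives. At5g61170 had 0.29, 0.35, 0.38 and 0.17 on replicates 1 to 4. Its rise was 0.30 (SE 0.046, SD 0.091, n = 4; adjusted p = 0.015). At5g15520, the lowest of the family, had 0.21, 0.20, 0.34 and 0.080 and rose by 0.21 (SE 0.042, SD 0.10, n = 4; adjusted p = 0.027). At3g02080 rose by 0.26 (adjusted p = 0.039).

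RPS20 is a head protein that, in yeast and human cells, is tagged with ubiquitin when ribosomes collide. Its 3 genes rose, of which At3g47370 and At5g62300 each lost the call in 7 of 12 alternatives. At3g45030 had 0.27, 0.48, 0.48 and 0.34 on replicates 1 to 4. It rose by 0.39 (SE 0.051, SD 0.10, n = 4; adjusted p = 0.012), or 1.31-fold. At5g62300 varied more, with 0.23, 0.18, 0.52 and 0.060, the highest on replicate 3. The mean was 0.25 (SE 0.060, SD 0.20, n = 4; adjusted p = 0.039). At3g47370 rose by 0.27 (adjusted p = 0.035).

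RPS29 is a small zinc-binding protein. At4g33865 had 0.00032, 0.53, 0.23 and 0.39 on replicates 1 to 4, so that replicate 1 stood at about 0 and replicate 2 far above it. It rose by 0.29 (SE 0.054, SD 0.23, n = 4; adjusted p = 0.022). At3g44010 rose by 0.29 (adjusted p = 0.019), with all arrays above 0. The third gene, At3g43980, had 0.057, 0.26, 0.13 and 0.089 and did not pass at 0.13 (SE 0.044, SD 0.089, n = 4; adjusted p = 0.083). At3g44010 was above At3g43980 on every array, by 0.12 to 0.20.

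Decoding accuracy and the path of the messenger RNA involve RPS23, RPS30, RPS26 and RPS28. RPS23 sits at the decoding centre. At3g09680 was well above background on 4 of 4 arrays in ang3 and on 1 of 4 in Ler, and its ratios were 0.20, 0.66, 0.38 and 0.32. The fitted mean came to 0.39 (SE 0.069, SD 0.19, n = 4; adjusted p = 0.019). This gene entered the test only through ang3, where it was the brighter, so this call supports nothing about the group, and its size depended strongly on how the background was treated. The bright paralog At5g02960 had -0.025, 0.46, 0.32 and 0.095, with replicate 1 just below 0. Its ratio of 0.21 (SE 0.086, SD 0.22, n = 4; adjusted p = 0.13) did not pass.

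RPS30 lies near the entry of the messenger RNA channel. Each of its 3 genes rose, and all were above 0 on 4 of 4 arrays. At5g56670 had 0.29, 0.36, 0.34 and 0.21 on replicates 1 to 4. Its rise was 0.30 (SE 0.041, SD 0.068, n = 4; adjusted p = 0.013). At4g29390 had 0.33, 0.15, 0.34 and 0.025, higher in the Cy5 orientation. That gene rose by 0.21 (SE 0.038, SD 0.15, n = 4; adjusted p = 0.021). At2g19750 rose by 0.26 (adjusted p = 0.015).

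RPS28 is found at the exit of that channel. Its 3 genes, At3g10090, At5g03850 and RPS28 (At5g64140), rose together, with a family median of 0.30. At3g10090 had 0.24, 0.57, 0.37 and 0.31 on replicates 1 to 4. It rose by 0.37 (SE 0.057, SD 0.14, n = 4; adjusted p = 0.015). RPS28 (At5g64140), the lowest of the 3, had 0.10, 0.41, 0.37 and 0.28. The rise was 0.29 (SE 0.058, SD 0.14, n = 4; adjusted p = 0.025), and At5g03850 rose by 0.30 (adjusted p = 0.039), a call lost in 6 of 12 alternatives. For each of these 3 genes replicate 1 was the lowest array and replicate 2 the highest.

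RPS26 contacts the messenger RNA upstream of the start codon, also at the exit. Its 3 genes varied widely over the arrays. At2g40510 had 0.48, 0.14, 0.24 and -0.086 on replicates 1 to 4, and its ratio of 0.19 (SE 0.062, SD 0.24, n = 4; adjusted p = 0.078) did not pass. At3g56340 had 0.33, 0.035, 0.46 and -0.10, and rose by 0.18 (SE 0.045, SD 0.26, n = 4; adjusted p = 0.041), a call that was lost in 9 of 12 alternatives, adjusted p 0.052 to 0.23. At2g40590 had 0.52, -0.078, 0.28 and -0.14 and did not pass at 0.15 (SE 0.051, SD 0.31, n = 4; adjusted p = 0.093). In each of the 3 both Cy5 arrays lay above both Cy3 arrays, as they did in 26.8% of all features. The dye term of the limma fit did not pass for any of them (adjusted p 0.24 to 0.32), and it passed for 0 of all features tested. Their means were 0.36, 0.40 and 0.40 with ang3 in Cy5 for At2g40510, At3g56340 and At2g40590, against 0.027, -0.034 and -0.11 in Cy3. At2g40590 is the one gene of the 47 with a second probe, and that probe, slightly dimmer, gave 0.31, 0.21, 0.16 and 0.19 on replicates 1 to 4. Its mean was 0.22 (SD 0.063, n = 4), so 2 probes of one gene differed in whether the orientations separated. With the mean of both probes At2g40590 passed at 0.18 (adjusted p = 0.043).

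The other families described gene by gene are RPS15a, RPS21, RPS24, RPS25 and RPS27. RPS15a binds the central part of the 18S ribosomal RNA. At5g59850 had 0.38, 0.33, 0.46 and 0.15 on replicates 1 to 4, all above 0. It rose by 0.33 (SE 0.045, SD 0.13, n = 4; adjusted p = 0.012). RPS15A (At1g07770), about as bright, had 0.073, 0.18, 0.20 and -0.11. Its ratio of 0.086 (SE 0.059, SD 0.14, n = 4; adjusted p = 0.33) did not pass, and At5g59850 was higher than it by 0.15 to 0.31 on every array. At2g39590 and RPS15AD (At3g46040) were dim and not tested. The first was well above background on no array, the second on 1 array in Ler only.

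RPS21 is needed in yeast to mature the small-subunit RNA. At5g27700 was among the steadiest genes, with 0.30, 0.37, 0.22 and 0.24 on replicates 1 to 4. It rose by 0.28 (SE 0.040, SD 0.065, n = 4; adjusted p = 0.013). At3g53890 stood close to 0 on replicates 1 and 4, at -0.024 and -3.2e-05, and at 0.36 and 0.24 on replicates 2 and 3. It did not pass at 0.14 (SE 0.078, SD 0.19, n = 4; adjusted p = 0.22). RPS24, another protein mutated in some human patients with Diamond-Blackfan anaemia, was the one family in which neither gene passed. At5g28060 had 0.47, 0.38, 0.28 and -0.016, for a mean of 0.28 (SE 0.076, SD 0.21, n = 4; adjusted p = 0.054). At3g04920 had 0.19, 0.32, 0.39 and 0.041, for a mean of 0.23 (SE 0.063, SD 0.15, n = 4; adjusted p = 0.052). Both lay just outside the threshold, and both had an unadjusted p under 0.05.

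RPS25 is known in yeast and human cells for its part in initiation at internal ribosome entry sites. At2g21580, the brightest of all 44 genes, had 0.27, 0.42, 0.47 and 0.36 on replicates 1 to 4. It rose by 0.38 (SE 0.046, SD 0.084, n = 4; adjusted p = 0.010). At4g34555 and At2g16360 rose by 0.20 (adjusted p = 0.028) and 0.17 (adjusted p = 0.024), and At2g16360 lost its call in 6 of 12 alternatives. At4g39200 was the one tested gene with a mean below 0, at -0.042, -0.058, -0.056 and -0.092. It was well above background on 1 of 4 arrays in ang3 and 3 of 4 in Ler, and did not pass at -0.062 (SE 0.033, SD 0.021, n = 4; adjusted p = 0.23).

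RPS27 is a zinc-binding protein. RS27A (At3g61110), known in Arabidopsis for altered responses to DNA-damaging treatment when mutated, had 0.28, 0.42, 0.36 and 0.30 on replicates 1 to 4. It rose by 0.34 (SE 0.041, SD 0.066, n = 4; adjusted p = 0.010). At5g47930 had 0.39, 0.33, 0.50 and 0.26 and the smallest adjusted p of the 44 genes, with a rise of 0.37 (SE 0.039, SD 0.10, n = 4; adjusted p = 0.0088). At2g45710, a dimmer gene, had -0.018, 0.38, 0.24 and 0.20, with replicate 1 just below 0. The mean of 0.20 (SE 0.059, SD 0.16, n = 4; adjusted p = 0.066) did not pass.

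Leaving out At3g09680 and At4g39200, 38 pairs of tested genes lay within a family, and the median difference of their ratios was 0.085. In 11 of 38 pairs the order was the same on all 4 arrays, and 3 of these 11 pairs differed by more than 0.2. These orders are a description, and no difference between paralogs was tested. The members of a family share most of their sequence, the files give no probe sequences, and how far a probe reads its paralogs was not tested.

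Ratios of the 44 genes correlated more within a dye orientation than between the 2. Across these 44 genes the ratios correlated with r = 0.76 between replicates 2 and 4 and r = 0.41 between 1 and 3. Between arrays of opposite orientation r was -0.24, -0.37, 0.30 and 0.26. Over all features r was 0.39 to 0.73 for any pair of arrays. The 44 genes spread less, with an SD of 0.13 to 0.17 per array against 0.20 to 0.34 over all features. A narrower spread by itself lowers r, so the 2 sets of r cannot be compared directly. These r values are across genes, which are not independent replicates. In 11 genes both Cy5 arrays were above both Cy3 arrays, against 26.8% of all features, and in 8 genes they were below, against 21.9%. These shares are close to the background, and the dye term passed for 0 of the 44 genes with limma (6 of 44 at an unadjusted p under 0.05, against 15% of all features). With 2 arrays per orientation, dye and the difference of replicates 1 and 3 from 2 and 4 cannot be told apart.

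**Figure D3:**
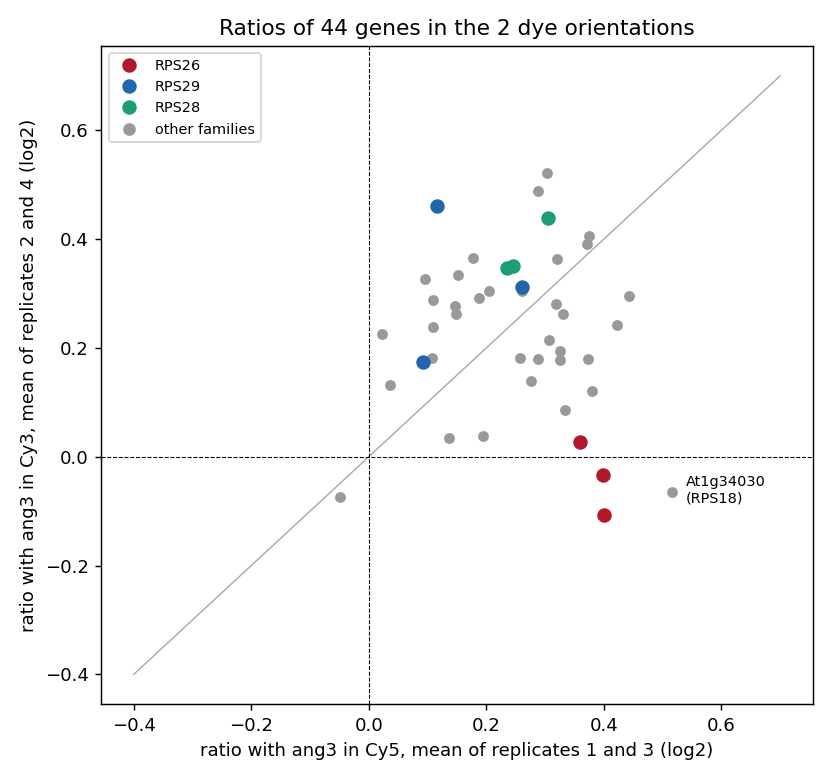
Mean log2 ratio of ang3 over Ler of 44 genes with ang3 in Cy5 (x axis, replicates 1 and 3) and in Cy3 (y axis, replicates 2 and 4), with 3 families coloured and a line where both are equal. The 3 RPS26 genes lie between 0.36 and 0.40 on the x axis and between -0.11 and 0.027 on the y axis.

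Background treatment mattered for the dimmest tested genes. For At3g09680 of the RPS23 family the log2 levels were 7.51 in ang3 and 7.12 in Ler, where the median of the 44 genes was 13.0. With an offset of 0 in place of 50 its ratios were 0.24, 1.44, 0.50 and 0.63 on replicates 1 to 4. In the processed signals they were 2.81, 2.72, 1.34 and 1.21, with a mean of 2.02. Since its Ler signal was well above background on 1 of 4 arrays, no fold is given. At4g39200 of the RPS25 family moved the other way, to -0.12 with an offset of 0 and -0.43 in the processed signals, where it was called lower (adjusted p = 0.021). It had entered the test only through Ler. Over the other 42 genes the mean ratio changed by -0.026 to 0.052 between the offset of 50 and the processed signals. Single arrays could move more. In At2g45710, a dim RPS27 gene, replicate 1 went from -0.018 to -0.20 and the SD from 0.16 to 0.28. The brighter 22 of the 44 genes had 17 that rose and a median of 0.26, and the dimmer 22 had 12 and 0.20. Over all features tested the median level, before Aquantile, was 9.77, well below that of the 44 genes. The share called among features of like brightness was not computed, so the shares over all features are not matched for level.

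**Figure D4:**
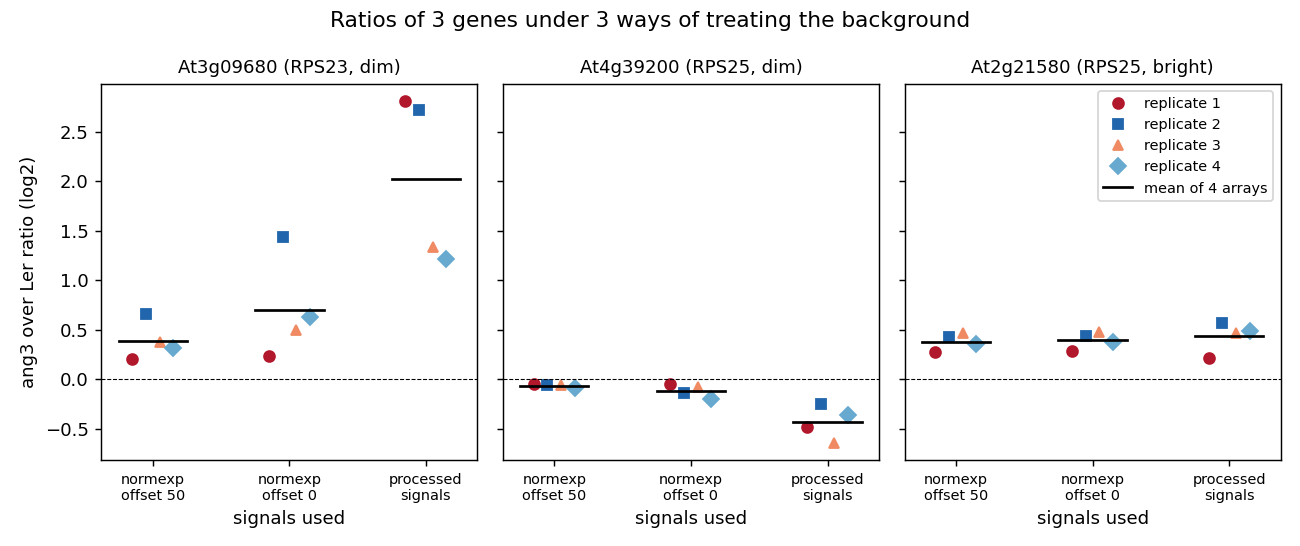
Log2 ratio of ang3 over Ler (y axis) of At3g09680, At4g39200 and At2g21580 on 4 arrays (points) with their mean (bars), under 3 ways of treating the background (x axis). The mean of At3g09680 goes from 0.39 to 2.02, that of At4g39200 from -0.062 to -0.43 and that of At2g21580 from 0.38 to 0.43.

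The p-values that the authors' software gave each array, in the deposited tables, were under 0.05 with a higher ratio in ang3 for 7, 14, 9 and 4 of the 44 genes on replicates 1 to 4. Over all features the deposited tables gave 5.56%, 8.36%, 8.7% and 6.58%. For lower ratios they gave 0 of the 44 genes on each array, against 4.96%, 5.94%, 6.83% and 6.06% of all features. Of the 44 genes, 20 had such a p with a higher ratio on no array in the deposited tables, 18 on 1 array, 3 on 2, 2 on 3 and 1 on 4. The spread of all features over such counts of arrays was not computed. The gene called on all 4 was At3g09680, and it alone also met the authors' criterion of an absolute log2 ratio above 1, on each of the 4 arrays in the deposited tables. Of 20145 features, 265, 672, 614 and 476 met it with a higher ratio and a deposited p under 0.05 on replicates 1 to 4. With a lower ratio they were 144, 148, 138 and 182. At3g09680 had entered the test only through ang3, with Ler well above background on 1 of 4 arrays.

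Mean ratios had the same sign under other scalings, whereas single arrays did not always show it. With an offset of 0, the processed signals or median centring, 132 of 132 mean ratios of the 44 genes had the sign given above. The same held for 176 of 176 ratios with 1 array left out, which share 3 of 4 arrays with the full set. Centring each array on its median in place of loess called 42 of the 44 genes higher, against 34.5% of all features, with a median of 0.40, or 0.25 above that of all features, which itself stood at 0.14. Under that setting the medians of the 44 genes were 1.02 and 0.89 on replicates 1 and 3 and -0.12 and -0.11 on replicates 2 and 4, so the 2 orientations were on opposite sides of 0. From the processed signals 21 were called higher, against 10.6% of all features, and 1 lower, against 12%. Of all features called, 57.1% were higher with loess, 94.3% with median centring and 46.8% with the processed signals. Of the 29 genes that rose, 18 were called higher in each of the 8 other settings that keep all 4 arrays, and 8 were still called without replicate 1, 2 or 4. The same shares over all features called higher were not computed, so these counts describe the 29 genes only.

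The other genes of the small subunit, RPSa to RPS14, moved the same way. Of 38 such genes listed by locus 37 were on the array and 36 were tested. Of these 20 rose, against 15% of all features called higher, and 16 did not pass, with a median ratio of 0.20. With limma 0 were lower, against 11.2% of all features (also 0 at an unadjusted p under 0.05, against 18.4%). Their highest ratio was 0.81, for At5g39850, and the next was 0.51. The locus number of At5g39850 is close to that of RPL5B (At5g39740), and the part of its position in the ratio was not tested. The difference between the 2 groups of small-subunit genes was not tested. Of the genes described here that share chromosome 5 with RPL5B, the nearest, At5g47930, was 1100 genes away in the reference gene table (TAIR10.1).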

How the data were processed

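Each of 4 Agilent arrays gives 1 file. Per the file headers, spots were quantified by the authors with Agilent Feature Extraction 10.1.1.1, and no genome build is named, so no coordinates are given. The deposited intensity values used here are medians of spot and local background, not normalized. Processed intensities had, per the file headers, background removed and dyes balanced within each array. The deposited log10 ratio is processed red over green, with a deposited p-value for 1 array from the software's error model. The log2 values of the authors' series table equal processed ratios already turned to ang3 over Ler (r = 1 against scanner values on each array), with medians of -0.045, 0.026, 0.0077 and -0.097. Whether the authors centred or filtered that table is not given in the sources used here. The 0 or 1 flags per spot are deposited as other values.

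Median signals were corrected with normexp (offset 50) and ratios normalized by loess within each array, with control and outlier spots at weight 0. Testing required a spot well above background on 3 or more of the 4 arrays in 1 genotype, and the brightest probe stood for a locus. That left 20145 features, after 10 with an outlier spot were left out. No probe of the 47 genes had one. Ratios were fitted with limma 3.58.1 in R 4.3.3 (lmFit, eBayes; genotype and a dye term; 2 residual and 3.02 prior degrees of freedom), two-sided. Levels per channel are log2 values after loess and Aquantile. The fit was tested on simulated data. Figures used Python 3.11.15 with matplotlib 3.10.9.

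Of the 47 genes 43 are named, in full for the ends of each family, and 1 family, counted in all totals, is not reported gene by gene here. Of the marker lists only called genes, absent markers and CLV1 are named. RPL5B is named as the mutated gene, and At5g39850 for its locus number. The members and lists were chosen with earlier results of these data known. Alternatives were the offset, the processed signals, median centring, no dye term, 2 other filters, the mean of probes, the series table and leaving out each array. Promoter motifs were planned but not analysed here.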

Additional observations from a re-analysis of the deposited data

How the results depend on the processing

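The median ratio of the 44 genes was 0.23 to 0.28 when 1 array was left out and 0.40 with median centring, against 0.25. Leaving out 1 array lowered the number of genes called higher from 29 to between 0 and 19, that of RPSa to RPS14 from 20 to between 2 and 16, and that of all features called from 5281 to between 536 and 2905, with 1 residual degree of freedom in such fits. The count of 0 was without replicate 3, that of 2 too. Median centring called 32 of the 36 tested genes of RPSa to RPS14 higher, against 34.5% of all features. Both the processed signals and the series table called 1 of the 44 genes lower. Under median centring 42 of the 44 genes were called higher, but those above 0 on all 4 arrays dropped from 31 to 10, all features called higher went from 3017 to 6950 and those called lower from 2264 to 424. From processed signals 21 of the 44 were called higher. The cause of these differences was not tested. The ratio within each array already pairs both genotypes, and no further block by replicate could be fitted. Dim signal limits the fold of At3g09680, At4g39200 and the 3 genes not tested. No group of 4 ratios among the 44 genes held an array far from the others by Dixon's criterion.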
